A study of Mus musculus with 6 samples.

Results

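Gfap-rich astrocytes were taken here as nuclei with at least 3 unique molecular identifiers (UMIs) of Gja1, Aqp4, Ntsr2, Slc39a12 and Fgfr3 together and at least 2 UMIs of Gfap. A nucleus also had to hold at most 1 UMI of the myelin genes Mog and Mag, 0 UMIs of the microglial gene Csf1r and at most 2 UMIs of the cilia genes Dnah12 and Spag17. Members were thus chosen by their measured UMIs of these 11 genes, which are described without a test. Of the 60724 nuclei with at least 300 genes and at most 1% mitochondrial UMIs, 1339 met this rule. They came from 6 single-nucleus RNA-sequencing (snRNA-seq) libraries of C57BL/6 S-56 mice, 3 injected with lysophosphatidic acid (LPA) and 3 with vehicle, a solution of bovine serum albumin. Both groups received 5 µl into the right lateral ventricle at P7 and were killed at P15, a model of post-hemorrhagic hydrocephalus. Each library held nuclei from a brain without olfactory bulbs and cerebellum, sorted as negative for the neuronal protein NeuN, so the regions of origin are mixed. LPA 1, vehicle 1 and vehicle 3 were male and the other 3 libraries female by Xist and Y-linked UMIs. LPA libraries gave 335, 337 and 343 Gfap-rich nuclei of 8525, 10266 and 9102, and vehicle libraries gave 96, 122 and 106 of 8102, 12410 and 12319. Total UMIs per library were 50737541, 53380143 and 54715094 with LPA and 48852970, 65688644 and 55864168 with vehicle. The members carried 1882008, 1645109 and 1824395 UMIs in LPA libraries and 512308, 519783 and 419691 in vehicle libraries. No member's barcode occurred in more than 2 libraries, and 27 occurred in 1 other library. Of 708 barcodes found in more than 1 library, 235 were in all 6, with a median of 788 UMIs, and none of these was a member.

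GFAP is the intermediate filament protein of astrocytes. In the healthy forebrain it is abundant in white matter, in the glia limitans below the pia and along the ventricles, and scarce in most gray matter astrocytes. After injury astrocytes of many regions make more of it together with vimentin and other genes, a state called reactive. Gfap transcription is known to respond to cytokines of the interleukin-6 family through the receptor subunit gp130 and the factor STAT3. Gfap lies on chr11:102887336-102900912, minus strand (GENCODE M21, GRCm38). The RefSeq promoter window of Gfap is shown because Gfap defined these nuclei. The 257 bases are chr11:102897194-102897450 on the minus strand (GRCm38.p6) and end 7 bases after the RefSeq start. The match to the STAT letters TTCNNNGAA is in capitals.
Gfap: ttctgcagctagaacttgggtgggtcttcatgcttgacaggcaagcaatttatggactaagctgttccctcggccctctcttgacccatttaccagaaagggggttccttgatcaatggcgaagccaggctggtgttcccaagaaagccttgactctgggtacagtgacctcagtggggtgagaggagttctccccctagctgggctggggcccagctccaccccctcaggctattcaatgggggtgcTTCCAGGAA
The match TTCCAGGAA crosses the RefSeq start, which lies inside the GENCODE span of Gfap. The upstream end of that span was not covered by a window. Of 32851 promoter windows of 300 bases, 8.30% held TTCNNNGAA and 7.81% held the AP-1 letters TGANTCA. Both motifs read the same on the other strand. No window of Shroom3, C530044C16Rik, Ccn1, Apoe or Myoc, leading genes of the LPA comparison, held either motif, and Gfap's held no TGANTCA. The windows of Shroom3 begin at chr5:92809132 and chr5:92897743, inside its GENCODE span, so the start of that span was not searched. Pla2g3, another leading gene, had no window.

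The share of nuclei that were Gfap-rich astrocytes was 3.93%, 3.28% and 3.77% in the LPA libraries and 1.18%, 0.983% and 0.860% in the vehicle libraries. Every LPA library was above every vehicle library. The means were 3.66% ± 0.337 with LPA and 1.01% ± 0.164 with vehicle (SD, n = 3 each), 3.63-fold apart (two-sided exact permutation test, p = 0.1, the smallest p that 3 against 3 libraries allow). All astrocytes by the same rule without Gfap made up 21.0% ± 1.18 of nuclei with LPA and 17.6% ± 0.309 with vehicle (exact p = 0.1). Among these astrocytes, the Gfap-rich nuclei were 17.7%, 15.7% and 19.0% in LPA libraries and 6.84%, 5.48% and 4.89% in vehicle libraries. The members were deeper in LPA libraries, with medians of 4161, 3649 and 3974 UMIs with LPA and 3409, 3052 and 2884 with vehicle. When every nucleus was thinned to 2000 UMIs before the rule was applied, the share was 1.81% ± 0.237 with LPA and 0.5% ± 0.0643 with vehicle, 3.62-fold apart.

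Free RNA can place Gfap UMIs in nuclei of other cells. These were oligodendrocytes (at least 4 UMIs of Mog and Mag), microglia (at least 2 of Csf1r) and neurons (at least 4 of Rbfox3, Snap25 and Syt1). All were required to hold 0 UMIs of the astrocyte genes of the rule other than Gfap. Nuclei that took up free RNA of those genes were thus left out, so the shares can understate the background. At least 2 Gfap UMIs were found in 0.202% of 2964 oligodendrocytes of LPA libraries and 0.0831% of 4812 of vehicle libraries, at median depths of 6545.5 and 5186 UMIs. The shares were 0.199% and 0.0563% in neurons, and 0.248% of 805 and 0 of 462 in microglia, which allows up to 0.649%. Among astrocytes the shares were 17.3% and 5.59% at 3761 and 3269.5 UMIs. A single Gfap UMI or more occurred in 5.60% of oligodendrocytes of LPA libraries and 2.24% of those of vehicle libraries, so this background also differed between the treatments. At the edge of the rule, 319 LPA and 159 vehicle nuclei held exactly 2 Gfap UMIs, and 781 and 620 astrocytes just outside it held 1. Members with at least 10 Gfap UMIs were 58 of 1015 with LPA and 11 of 324 with vehicle. Since the rule fixed Gfap, its level in members is a description only. It was 845, 865 and 830 CPM (UMIs scaled to library size, with TMM factors) in LPA libraries and 735, 797 and 874 in vehicle libraries, and the libraries overlapped.

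**Figure D1:**
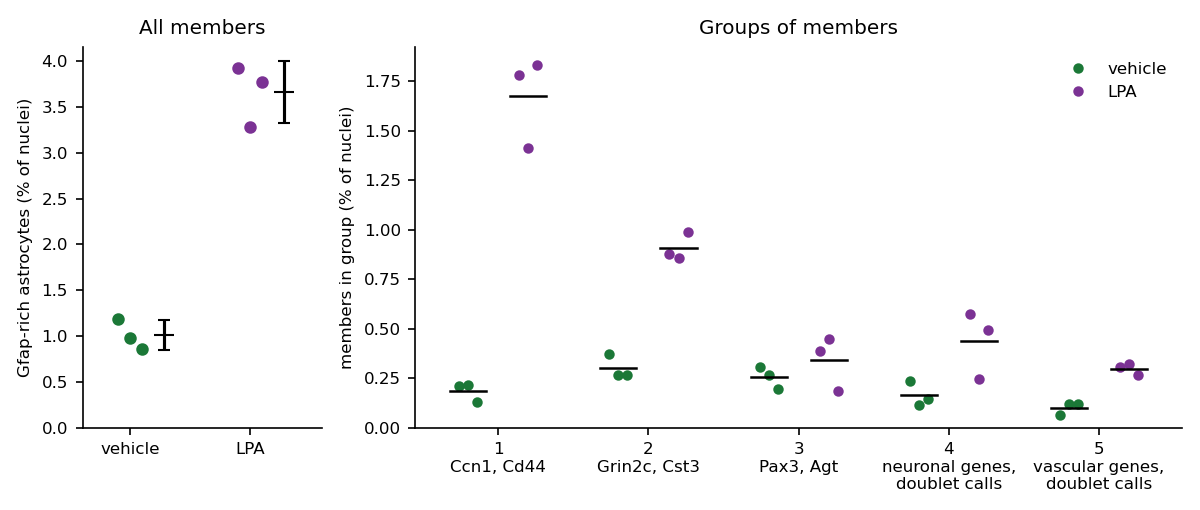
The left panel plots Gfap-rich astrocytes as a percentage of nuclei passing the filters, with 1 point per library and the mean ± SD (n = 3) beside them. The right panel splits the members into 5 groups of nuclei found by clustering, with lines at the means; group 1 averaged 1.68% of nuclei with LPA and 0.186% with vehicle, while the libraries overlapped in group 3.

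The label was checked against other genes. Gfap-poor astrocytes, the 10312 nuclei that met the rule with 0 or 1 Gfap UMI, served for comparison, and the log2 ratios between both populations are a description with no test. Myoc, which encodes the secreted protein myocilin and marks astrocytes of the glia limitans, was higher in Gfap-rich nuclei by a median log2 ratio of 4.42 (range 3.04 to 5.87 over 6 libraries). Thbs4, a thrombospondin of subventricular and white matter astrocytes, was higher by 1.95 (1.38 to 3.37). At least 1 UMI of Myoc or Thbs4 was present in 31.0%, 33.8% and 25.9% of members in LPA libraries and in 54.2%, 46.7% and 39.6% in vehicle libraries. In Gfap-poor astrocytes these shares lay between 3.76% and 6.55%. Among 8193 genes of at least 20 CPM in either population, 25 (0.305%) were at least 2-fold higher and 10 (0.122%) at least 2-fold lower in Gfap-rich nuclei of all 6 libraries, with the rule genes Gfap and Aqp4 among the higher ones. After Myoc, the highest median ratios belonged to Ggta1 (3.09), a galactosyltransferase on lists of reactive astrocyte genes, and the long noncoding RNA C530044C16Rik (2.92). Slc36a2 (2.85), an amino acid transporter gene, and Aspg (2.61), an asparaginase, followed. C4b (2.60), which encodes complement component C4, had 212 CPM in Gfap-rich and 34.6 CPM in Gfap-poor nuclei. Cd44 (2.49), a receptor for hyaluronan, A2m (2.49), a protease inhibitor, and Atoh8 (2.47) came next. The 10 lowest median ratios included Htr2c (-2.64), Ttr (-2.04) and Tmem72 (-2.69), genes of the choroid plexus, and Slc47a1 (-2.20), a transporter of meningeal cells. These genes mark cells other than astrocytes, and their levels in the Gfap-poor population are part of the comparison. Astrocyte genes outside the rule separated the populations little, such as Slc1a3 (-0.05), a glutamate transporter, and Aldoc (-0.14).

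Within the members, Myoc and C4b were higher at higher Gfap counts in both treatments. In vehicle libraries Myoc was at 151 CPM in nuclei with 2 Gfap UMIs, 454 with 3 to 4, 852 with 5 to 9 and 1618 with 10 or more (pooled nuclei, without an error). The LPA nuclei had 47.0, 79.0, 118 and 219 CPM of Myoc in these bins. C4b was at 80.9 CPM with 2 and 337 CPM with 5 to 9 Gfap UMIs in vehicle nuclei, and at 197 and 332 CPM in LPA nuclei. The bins of at least 10 Gfap UMIs held 58 and 11 nuclei, so the last vehicle value rests on few nuclei. Shroom3 was at 107, 171, 183 and 153 CPM over the 4 bins with LPA and at 26.5, 17.6, 21.6 and 0 CPM with vehicle.

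Clustering the members without the rule genes and without any gene of unadjusted p under 0.05 between treatments gave 5 groups of nuclei. Group 1 (524 nuclei) was led by C530044C16Rik, Ccn1, Cmya5, Cd44 and Cd109 when compared with the other members over both treatments. It held 464 LPA and 60 vehicle nuclei, so these ratios also carry the difference between treatments, and Ccn1 had 0 UMIs in its vehicle nuclei. Group 2 (349 nuclei) was led by Grin2c, Hsd11b1, Fjx1, Cst3 and Aldoc. Group 3 (178 nuclei) was led by Pax3, Agt and Myoc. Pax3 encodes a factor of the dorsal midbrain and Agt angiotensinogen, an astrocyte gene outside the telencephalon. Group 3 nuclei also held 785 (LPA) and 939 CPM (vehicle) of Slc6a11, a GABA transporter of non-telencephalic astrocytes, against 146 and 198 CPM in group 1. Group 4 (170 nuclei) was led by neuronal genes such as Dlgap2 and Rbfox3, and group 5 (118 nuclei) by vascular and meningeal genes such as Flt1 and Ptgds. Scrublet called 88.8% of group 4 and 88.1% of group 5 doublets, with median depths of 10530 and 6614 UMIs, and 0.573%, 0.573% and 1.69% of groups 1 to 3, with 3372.5, 3626 and 3056.5 UMIs. Groups 4 and 5 held 288 members (21.5%). Doublets were called on 21.2%, 15.7% and 19.5% of members with LPA and 22.9%, 18% and 26.4% with vehicle, and these libraries overlapped.

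As a share of all nuclei, group 1 was 1.78%, 1.41% and 1.83% in LPA libraries and 0.210%, 0.218% and 0.130% in vehicle libraries, a 9.03-fold difference of means. Group 2 was 0.880%, 0.857% and 0.989% against 0.370%, 0.266% and 0.268%, 3.02-fold apart. Group 3 was 0.387%, 0.448% and 0.187% against 0.309%, 0.266% and 0.195%, and these libraries overlapped (1.33-fold, exact p = 0.5). Groups 1 to 3 together were 2.93% ± 0.181 with LPA and 0.744% ± 0.148 with vehicle, 3.94-fold apart. Among members, group 1 made up 45.7% ± 2.84 with LPA and 18.3% ± 3.56 with vehicle, and group 3 made up 9.49% ± 4.36 and 25.2% ± 2.31. Both differences had an exact p of 0.1 and a Benjamini-Hochberg p of 0.167 over the 5 groups, so neither could pass 0.05 in this design.

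To ask how expression in Gfap-rich astrocytes differed with LPA, UMIs were summed per library over the members and tested with edgeR. Genes past an adjusted p of 0.05 whose log2 fold change exceeded 0.25 in size were called differentially expressed (DEGs). Adjusted p-values are from edgeR's quasi-likelihood test with Benjamini-Hochberg adjustment over all genes tested, and errors of log2 fold changes are standard errors (SE, n = 3 libraries each). Of 10963 genes tested, 447 (4.08%) were DEGs, 268 (2.44%) higher and 179 (1.63%) lower with LPA, and 1708 (15.6%) had an unadjusted p under 0.05. The 3 libraries of LPA and vehicle did not overlap in 21.8% of genes tested. Leaving out 1 library gave 234 (without vehicle 3), 270 (without LPA 3), 297 (without LPA 1) and at most 372 DEGs, and every one of the 447 that could be tested in these fits kept its direction. Without groups 4 and 5, an alternative added after seeing the data, 694 of 8667 genes (8.01%) were DEGs, 398 higher and 296 lower. The genes described first were among the 24 DEGs of lowest adjusted p with a mean of at least 10 CPM and libraries that did not overlap. All 24 were also called without any 1 of the 6 libraries.

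Among the leading genes that were higher, Shroom3, an actin-binding regulator of cell shape (chr5:92683435-92965318, plus strand), was at 178, 142 and 150 CPM in LPA libraries and 21.5, 25.6 and 19.3 CPM with vehicle. It rose by 2.81 ± 0.20 on the log2 scale (adjusted p = 1.19e-06). Ccn1, a secreted matrix protein and a target of YAP signaling (chr3:145646976-145649981, minus strand), was at 83.5, 81.6 and 95.4 CPM against 5.87, 13.8 and 4.83 CPM. It rose by 3.36 ± 0.29 (adjusted p = 6.90e-06), from 3, 7 and 2 UMIs in the vehicle libraries, and by 3.99 without vehicle 2. Osmr, the receptor of oncostatin M that pairs with gp130 (chr15:6813577-6874969, minus strand), was at 75.7, 70.4 and 75 CPM against 9.78, 11.8 and 9.66 CPM. The libraries were far apart, with a log2 fold change of 2.80 ± 0.25 (adjusted p = 7.60e-06). Neat1, the noncoding RNA scaffold of nuclear paraspeckles, was at 370, 323 and 327 CPM against 121, 138 and 135 CPM (1.37 ± 0.12, adjusted p = 7.60e-06). C530044C16Rik, a noncoding RNA on chr6:50776115-50815033, was at 132, 121 and 110 CPM against 19.6, 21.6 and 9.66 CPM (2.79 ± 0.23). Gadl1, an acidic amino acid decarboxylase, rose from 1, 2 and 2 UMIs in vehicle libraries to 90, 82 and 94 UMIs in LPA libraries (3.84 ± 0.36). Also higher were Emid1 (1.46 ± 0.15), Adgrv1 (1.52 ± 0.16), an adhesion receptor, Sctr (1.85 ± 0.20), the secretin receptor, Ggta1 (1.43 ± 0.16) and Aspg (1.77 ± 0.20). Ggta1, Aspg and C530044C16Rik were also among the 10 highest ratios of Gfap-rich to Gfap-poor nuclei given above. Slc36a2, also among these ratios, fell with LPA (-1.29 ± 0.31, adjusted p = 0.0237), as did Myoc, described next. The call of Slc36a2 was lost without LPA 1, LPA 3, vehicle 2 or vehicle 3 (adjusted p up to 0.167).

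Among the leading genes that were lower, Apoe, the main lipid carrier that astrocytes secrete (chr7:19696109-19699188, minus strand), was at 1787, 1818 and 1892 CPM in LPA libraries and 3876, 3304 and 3227 CPM in vehicle libraries. It fell by 0.92 ± 0.10 on the log2 scale (adjusted p = 5.02e-05). Myoc (chr1:162639155-162649693, plus strand) was at 71.3, 154 and 55.7 CPM with LPA and 428, 392 and 415 CPM with vehicle. This was a fall by 2.15 ± 0.24 (adjusted p = 7.19e-05), and LPA 2 held the highest of the LPA values. Thbs4 went the other way, with 79.6, 88.5 and 109 CPM against 29.3, 59.0 and 36.2 CPM (1.14 ± 0.23, adjusted p = 0.00691). Without vehicle 1 or vehicle 3 the adjusted p of Thbs4 was 0.0565 and 0.0589, and it was not a DEG in group 1 (0.53 ± 0.42, adjusted p = 0.568), in group 2 (0.05 ± 0.38, adjusted p = 0.986) or with the same mix of groups 1 to 3 (0.75 ± 0.43, adjusted p = 0.487). Agt (chr8:124556534-124569706, minus strand) was at 44.2, 44.9 and 31.2 CPM against 125, 140 and 89.4 CPM (-1.57 ± 0.19, adjusted p = 0.000156). Pla2g3, a secreted phospholipase A2, fell from 125, 140 and 126 CPM to 55.3, 52.3 and 53.4 CPM (-1.28 ± 0.15). Hopx, a small homeodomain protein of neural stem cells and astrocytes, fell from 84.1, 78.7 and 79.7 CPM to 36.5, 37.4 and 36.9 CPM (-1.13 ± 0.17). Aldh1a1 (-0.85 ± 0.11), a retinaldehyde dehydrogenase, Cst3 (-0.79 ± 0.11), the protease inhibitor cystatin C, and Tsc22d3 (-1.13 ± 0.18), a glucocorticoid target, fell as well. Eya2 (-1.81 ± 0.24) was lower in every LPA library but was too low to be tested without groups 4 and 5. Of 11 tested mitochondrial genes 8 fell, among them mt-Nd1 (-1.81 ± 0.28) and mt-Atp6 (-1.68 ± 0.26), and the filter at 1% mitochondrial UMIs bounds their level. Members held a mean of 0.0359%, 0.0474% and 0.0905% mitochondrial UMIs in LPA libraries and 0.234%, 0.148% and 0.182% in vehicle libraries, and the part of this difference in the other results was not tested.

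**Figure D2:**
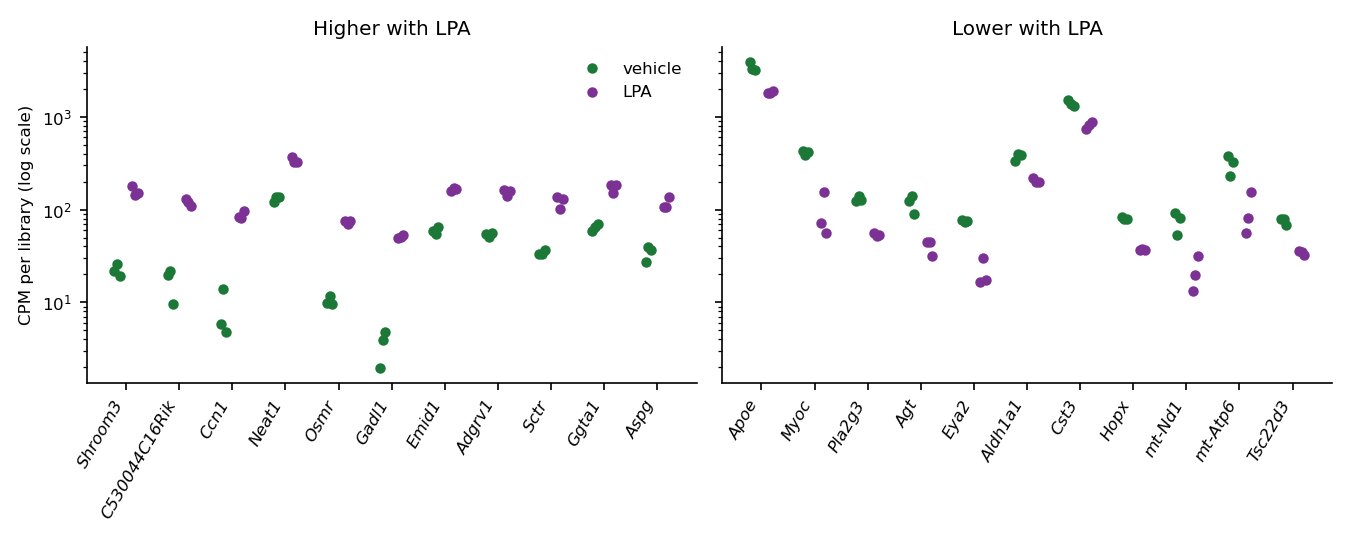
CPM of 11 leading genes that were higher (left) and 11 that were lower (right) with LPA in Gfap-rich astrocytes, on a log axis, with 1 point per library (3 LPA, 3 vehicle). The treatments do not overlap for any gene shown, because genes whose libraries overlapped were not eligible; Gadl1 lies lowest in vehicle libraries, at 1.96 to 4.83 CPM.

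Since the share of group 1 differed between the treatments, the fit was repeated within groups of nuclei and with the same mix of groups 1 to 3 (48 nuclei per library), after the groups had been seen. The same mix gave 95 DEGs of 3585 genes (2.65%), group 1 alone 284 of 5440 (5.22%) and group 2 alone 84 of 4217 (1.99%). Group 3 alone gave 0 of 1965, with 164 genes (8.35%) at an unadjusted p under 0.05 in edgeR. Of the 447 DEGs, 284 could be tested with the same mix, of which 77 were DEGs there and 279 kept their direction. Among the leading genes above, Emid1 (0.70 ± 0.31, adjusted p = 0.315), Sctr (1.16 ± 0.35, adjusted p = 0.0669), Ggta1 (0.87 ± 0.27, adjusted p = 0.093) and Tsc22d3 (-0.60 ± 0.41, adjusted p = 0.578) were not DEGs with the same mix. Emid1 was not a DEG in group 1 either (0.85 ± 0.30, adjusted p = 0.107) but rose in group 2 (1.43 ± 0.37, adjusted p = 0.0323). Shroom3 (3.29 ± 0.49), Neat1 (0.93 ± 0.21), Adgrv1 (2.60 ± 0.37) and Aspg (2.00 ± 0.44) remained DEGs with the same mix, and Osmr, Ccn1, Gadl1 and C530044C16Rik were too low to be tested in it. Shroom3 rose in group 1 (4.44 ± 0.56, adjusted p = 3.95e-06) and in group 2 (2.70 ± 0.51, adjusted p = 0.00322), as did Osmr (4.02 ± 0.82 and 2.76 ± 0.56) and Aspg (2.15 ± 0.44 and 2.98 ± 0.55). Ccn1 had 0 UMIs in the 60 vehicle nuclei of group 1 and 178 CPM in the 464 LPA nuclei, at least 8.4-fold higher when the vehicle total is set to 3 UMIs. Apoe fell in group 1 (-1.61 ± 0.13) and group 2 (-0.82 ± 0.17), and with the same mix (-1.02 ± 0.15, adjusted p = 0.000133).

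Myoc in group 1 was at 1242 CPM in vehicle and 140 CPM in LPA nuclei, a change of -3.08 ± 0.21 (adjusted p = 5.5e-12). In group 3 it was at 939 and 314 CPM (-1.76 ± 0.51, adjusted p = 0.18), and with the same mix it fell by 2.13 ± 0.31 (adjusted p = 0.000133). Agt fell in group 1 (-2.78 ± 0.58) but had -0.81 ± 0.30 (adjusted p = 0.18) with the same mix. Slc6a11 likewise had -0.64 ± 0.12 (adjusted p = 0.00527) over all members and -0.14 ± 0.19 (adjusted p = 0.84) with the same mix. C4b was at 153, 144 and 171 CPM with vehicle and 242, 297 and 292 CPM with LPA over all members (0.83 ± 0.13, adjusted p = 0.00141). In group 2 it rose by 1.67 ± 0.25 (adjusted p = 0.000266), while group 1, with 374 CPM in vehicle nuclei already, had 0.32 ± 0.21 (adjusted p = 0.49). Ggta1 and A2m likewise rose in group 2 (2.15 ± 0.40 and 2.04 ± 0.48) and had 0.32 ± 0.24 and 0.45 ± 0.30 in group 1, neither a DEG there. With the same mix C4b (0.42 ± 0.25, adjusted p = 0.49) and A2m (0.32 ± 0.37, adjusted p = 0.797) were not DEGs. The difference between the groups in these effects was not tested.

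**Figure D3:**
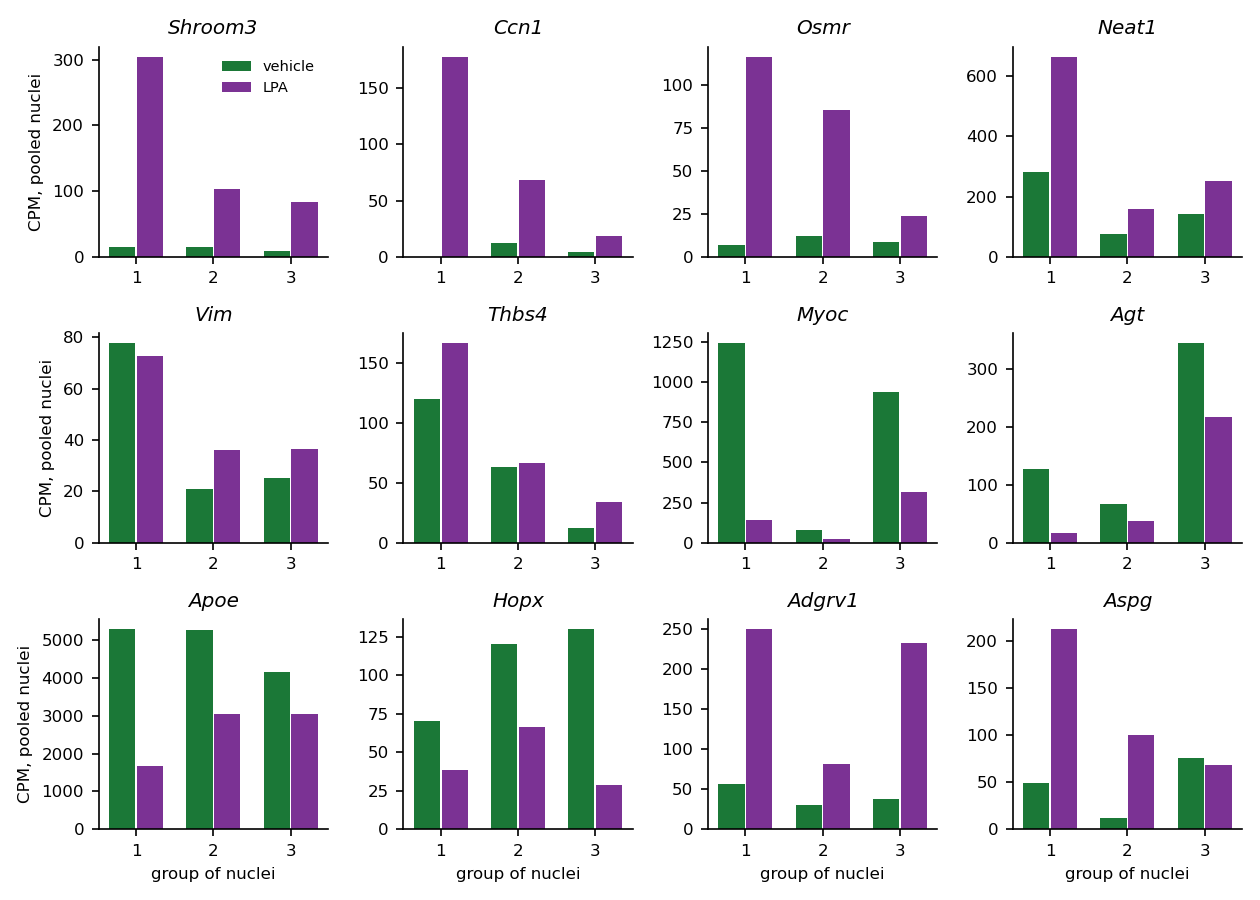
Bars give the CPM of 12 genes in the pooled Gfap-rich nuclei of groups 1, 2 and 3, for vehicle (60, 96 and 82 nuclei) and LPA (464, 253 and 96 nuclei), from 0 and without an error. Shroom3 and Osmr are high in LPA bars of groups 1 and 2, Myoc is high in the vehicle bars of groups 1 and 3, and Agt is highest in group 3 in both treatments.

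Genes of reactive astrocytes were read from lists, each given by its count of DEGs beside 2.44% higher and 1.63% lower over all genes tested, whose median log2 fold change was -0.01. Of 7 tested pan-reactive genes 4 rose, with a list median of 1.55, namely Osmr, Aspg, Cd44 and Vim. Cd44 was at 82.4, 74.1 and 84.1 CPM with LPA and 33.2, 9.84 and 33.8 CPM with vehicle (1.67 ± 0.26, adjusted p = 0.00144). Vim, the filament protein vimentin, was at 46.4, 47.3 and 47.7 CPM against 29.3, 27.6 and 19.3 CPM (0.87 ± 0.23, adjusted p = 0.0378). Its call was lost without any 1 of the libraries (adjusted p up to 0.17) and without groups 4 and 5 (0.76 ± 0.30, adjusted p = 0.12). Serpina3n, a protease inhibitor often used as a reactive marker, was at 9.81 and 8.13 CPM on average (0.23 ± 0.52, adjusted p = 0.887). Lcn2 had 0 UMIs in all libraries, which allows up to 0.561 CPM over the LPA and 2.07 CPM over the vehicle libraries. Of the genes raised by lipopolysaccharide, Ggta1 and Serping1 rose and Fkbp5 fell among 4 tested. Of the genes raised by ischemia, Cd109 rose among 2 tested (2.44 ± 0.35, adjusted p = 0.000751, and 3.06 without vehicle 1). Most genes of both lists were too low to be tested, among them C3 and Gbp2 of the first. Of the pan-reactive genes, Timp1 was too low. Among complement genes C4b and Serping1 rose. Serping1, the C1 inhibitor, lost its call without vehicle 2 or vehicle 3 (adjusted p = 0.147 and 0.141) and was tested in 4 of the 6 fits without a library (2.05 over all members, 2.82 without vehicle 1).

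In the pathway of gp130 and STAT3, Osmr and Junb rose and Cntfr, the receptor subunit for ciliary neurotrophic factor, fell among 10 tested (median -0.03). Cntfr lost its call without LPA 3 or vehicle 2 (adjusted p = 0.0534 and 0.0547) and with the same mix (-0.54 ± 0.27, adjusted p = 0.401). Stat3 itself was at 184, 189 and 177 CPM against 111, 171 and 121 CPM (0.44 ± 0.15, adjusted p = 0.112). Il6st, which encodes gp130, had -0.11 and Lifr -0.40, neither a DEG. Immediate-early genes gave 2 that rose of 7 tested, Fos and Junb. Fos was at 44.8, 45.5 and 42.0 CPM against 3.91, 13.8 and 2.42 CPM (2.64 ± 0.37, adjusted p = 0.000581), and without vehicle 2 the log2 fold change was 3.73. Junb lost its call without vehicle 2 or vehicle 3 (adjusted p = 0.0663 and 0.0614). None of 4 tested interferon-stimulated genes and none of 4 tested cell division genes was a DEG in edgeR or DESeq2, with 0 at an unadjusted p under 0.05 in either list. The study injected LPA, whose receptors and enzymes formed another list. None of its 7 tested genes was a DEG in edgeR or DESeq2, with 2 at an unadjusted p under 0.05, Enpp2 and Lpar4. Lpar1, which encodes the receptor LPA1, was at 46.4, 43.6 and 43.2 CPM with LPA and 25.4, 57.1 and 24.2 CPM with vehicle. It was a DEG without groups 4 and 5 (1.34 ± 0.38, adjusted p = 0.0241), but not without Scrublet doublets (1.00 ± 0.37, adjusted p = 0.114) or in members without UMIs of 6 markers of other cells (0.61 ± 0.46, adjusted p = 0.565). Plpp3, a phosphatase that breaks LPA down, was at 1034, 1033 and 1090 CPM against 1099, 1106 and 947 CPM (0.00 ± 0.10).

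Of 20 tested genes of lipid transport and cholesterol synthesis 4 fell and 0 rose (median -0.31), namely Apoe, Fabp5, Clu and Lcat. Without groups 4 and 5, 7 of 19 tested genes of this list fell and 0 rose. Over all 8667 genes tested in that fit, 296 fell and 398 rose. Fabp5, a fatty acid binding protein, changed by -0.77 ± 0.15 (adjusted p = 0.00623). Clu, the lipid carrier clusterin, lost its call without LPA 1, LPA 3 or vehicle 2 (adjusted p up to 0.0838), and Lcat without 4 of the libraries (up to 0.332). Over all members the enzymes of cholesterol synthesis were not DEGs, with Sqle at -0.62 (adjusted p = 0.0785) and Idi1 at -0.69 (adjusted p = 0.158). Of 16 tested genes of transmitter uptake and potassium buffering 2 rose and 4 fell (median -0.11). Without groups 4 and 5, 2 rose and 7 fell of 16 tested, beside the counts over all genes just given for that fit. Slc6a11 is given above. The calls of Gjb6, Atp1b2, Grm3 and Slc1a3 were each lost without at least 2 of the single libraries. The glutamate transporter Slc1a2 had -0.11 and the glutamine synthetase gene Glul -0.06, neither a DEG over all members. Of 14 tested glucocorticoid targets and receptors 4 fell and 0 rose (median -0.55), namely Tsc22d3, Fkbp5, Zbtb16 and Klf9. Fkbp5 changed by -0.93 ± 0.16 over all members and by -0.49 ± 0.32 (adjusted p = 0.46) without groups 4 and 5. Klf9 lost its call without 5 of the 6 libraries (adjusted p up to 0.211) and Zbtb16 without vehicle 3 (0.0828).

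Genes of position and of stem cells changed in both directions. Of 7 tested genes of non-telencephalic astrocytes Agt, Zic1 and Slc6a11 fell and Pax6 rose (median -0.64), and of 7 tested telencephalic genes Mfge8 fell (median -0.41). Zic1 changed by -1.36 ± 0.24 (adjusted p = 0.00267). Pax6 lost its call without 4 of the libraries (adjusted p up to 0.15) and Mfge8 without any 1 of the 6 (up to 0.174). In the list of neural stem cell genes Thbs4 and Slc1a3 rose and Hopx fell among 11 tested (median 0.33). Nes, the stem cell filament nestin, was at 4.42, 3.11 and 7.95 CPM against 1.96, 1.97 and 7.25 CPM and was not tested. In the list of matrix and scar genes Cd44 and Thbs4 rose and 5 fell of 20 tested (median -0.08). The 5 were Sparc, Ncan, Tnc, Adamts9 and Sparcl1, each with a call lost without at least 4 of the single libraries. Of 13 tested synaptogenic and phagocytic genes Gpc4, a glypican that promotes synapses, rose (1.24 ± 0.24, adjusted p = 0.00537) and Sparc and Sparcl1 fell. Of 17 tested targets of BMP, Notch and Shh only Id2 fell, and of 12 tested genes of iron, glutathione and metallothionein only Fth1. Without groups 4 and 5 the counts that fell were 4 of 17 and 1 of 12, beside 296 of 8667 over all genes tested. The calls of Id2 and Fth1 were lost without 3 and 2 of the libraries (adjusted p up to 0.111 and 0.0814). Among 12 tested astrocyte markers outside the rule Slc1a3 rose and 5 fell, including Ndrg2 (-0.58 ± 0.11, adjusted p = 0.00622) and Aldoc, whose call was lost without LPA 1, LPA 3 or vehicle 1 (up to 0.124). The list of glia limitans genes gave 4 that rose, C4b, Cd44, Thbs4 and Vim, and 1 that fell, Myoc, of 12 tested.

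**Figure D4:**
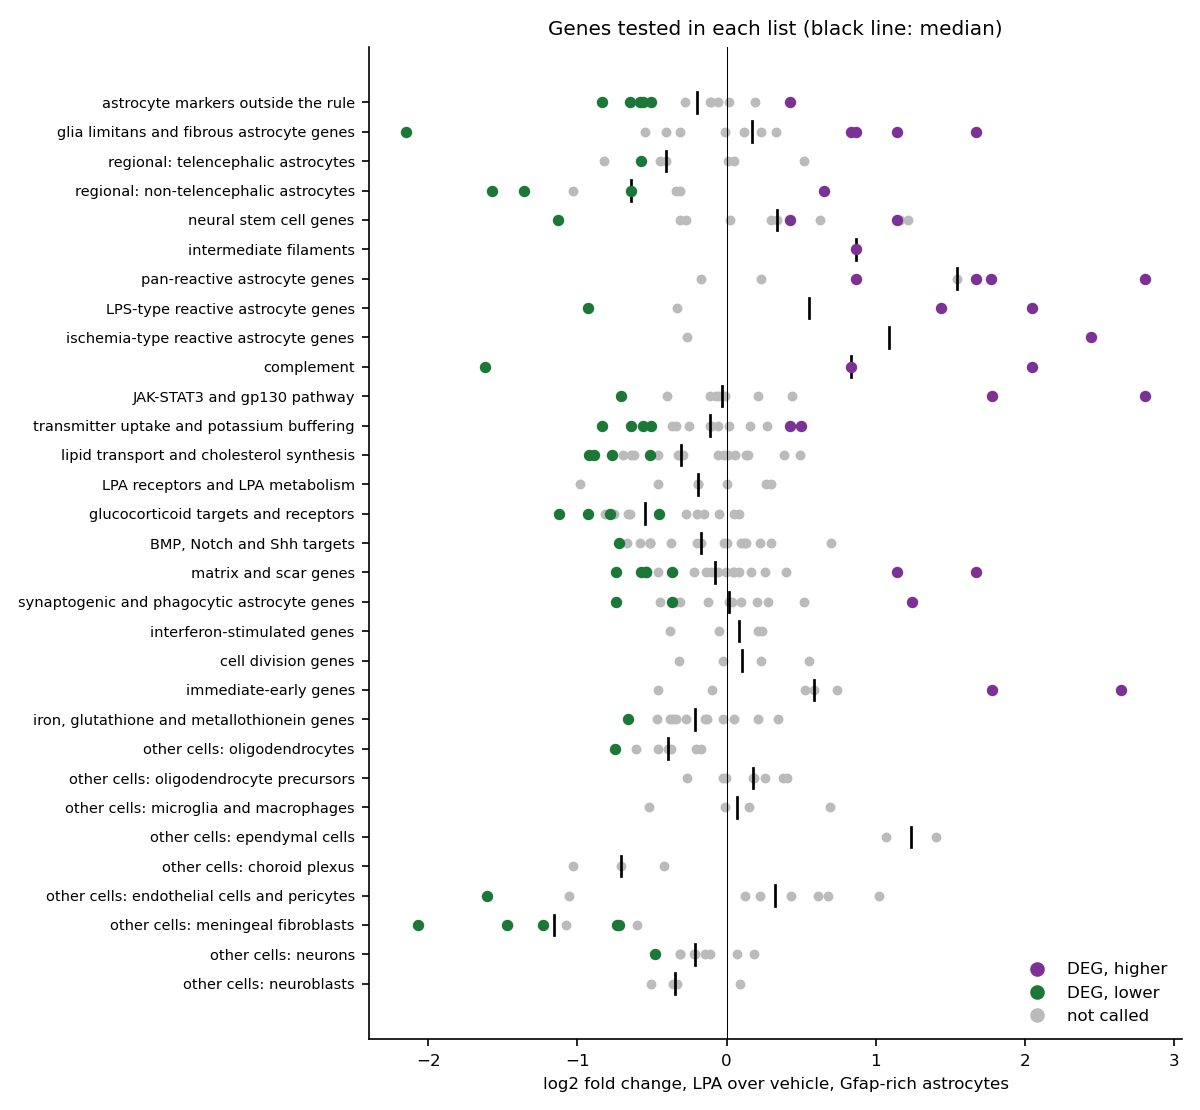
Each point is the log2 fold change of a gene tested in Gfap-rich astrocytes, LPA over vehicle, in its list, with DEGs in color and a black line at the list's median. The medians of pan-reactive genes (1.55) and meningeal markers (-1.16) lie farthest from 0 among lists with at least 5 genes tested.

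Markers of other cells in the members were summed for each library. Meningeal fibroblast markers fell in 5 of 8 tested genes, Slc6a13, Slc6a20a, Col1a2, Bmp6 and Ranbp3l. Slc6a13 kept its call without any 1 library, while Slc6a20a and Col1a2 lost theirs without 2, Bmp6 without 4 and Ranbp3l without 5 of the libraries (adjusted p up to 0.245). The 10 markers summed to 280, 306 and 310 CPM in LPA libraries and 450, 734 and 674 CPM in vehicle libraries, with Ranbp3l the most abundant. In groups 1 to 3 alone the sums were 172, 152 and 204 CPM against 174, 223 and 174 CPM, and none of the 3 markers still tested was a DEG. Neuronal markers summed to 4381, 3532 and 4620 CPM with LPA and 4615, 3369 and 4277 CPM with vehicle, with Meg3 the most abundant. In groups 1 to 3 alone they summed to 2567, 2483 and 2380 CPM with LPA and 1748, 1903 and 2023 CPM with vehicle, without overlap. Meg3 was higher there (0.67 ± 0.13, adjusted p = 0.000445) and not a DEG over all members (0.18 ± 0.12) or with the same mix (0.28 ± 0.18, adjusted p = 0.542). The part of this difference in the results was not tested. Snap25 was the only DEG of 9 tested and lost its call without any 1 library (adjusted p up to 0.194). Oligodendrocyte markers summed to 761, 997 and 819 CPM against 902, 1431 and 1200 CPM, led by Mbp, with Mobp lower as 1 DEG of 7 tested, a call lost without LPA 1, LPA 3, vehicle 2 or vehicle 3 (adjusted p up to 0.252). In groups 1 to 3 alone the oligodendrocyte markers summed to 891, 1129.9 and 927 CPM against 1360.3, 1850.1 and 1425 CPM, with 3 of 7 tested lower as DEGs. Markers of oligodendrocyte precursors summed there to 489, 606 and 432 CPM against 850, 638 and 782 CPM, with 1 of 5 lower. Over all genes tested in groups 1 to 3, 296 of 8667 were lower as DEGs. In edgeR and in DESeq2 the calls were 0 of 8 for oligodendrocyte precursors (led by Tnr), 0 of 4 for microglia (led by P2ry12, with Csf1r at 0 by the rule), 0 of 2 for ependymal cells (led by Cfap43), 0 of 3 for choroid plexus (led by Htr2c) and 0 of 4 for neuroblasts (led by Dcx). At an unadjusted p under 0.05 in edgeR the counts were 1, 0, 2, 1 and 1. The 2 ependymal markers tested had a median log2 fold change of 1.24, and the list summed to 75.2, 71.6 and 64.7 CPM with LPA and 27.4, 45.3 and 21.7 CPM with vehicle. Its part in the results was not tested. Endothelial and pericyte markers summed to 309, 272 and 368 CPM against 286, 266 and 331 CPM, led by Pdgfrb, with Vtn lower as 1 DEG of 8 tested, a call lost without vehicle 2 or vehicle 3 (adjusted p up to 0.0791). Shroom3 (4.07 ± 0.31), Osmr (3.27 ± 0.36), Apoe (-1.10 ± 0.13) and Myoc (-2.26 ± 0.21) remained DEGs without groups 4 and 5. Without Scrublet doublets 654 genes were DEGs, 356 of them among the 447, and the log2 fold changes of these 4 genes were 3.83, 3.67, -1.01 and -2.21. In members without any UMI of 6 markers of other cells 409 genes were DEGs, 264 of them among the 447, and the 4 values were 3.96, 2.83, -1.08 and -2.46. The 4 genes were DEGs in both fits. Without Scrublet doublets Col1a2 (-0.66, adjusted p = 0.291), Ranbp3l (-0.27, adjusted p = 0.602) and Bmp6 (0.09, adjusted p = 0.94) were not DEGs, and Slc6a13 and Slc6a20a were too low to be tested.

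Whether an LPA effect differed from that in Gfap-poor astrocytes of the same libraries was tested as the population by LPA term, with the library as a block. Gfap UMIs set the population of each nucleus, and the mean Gfap-rich share of astrocytes was 17.5% with LPA and 5.73% with vehicle. A difference in Gfap between treatments can thus move nuclei between the populations, and its part in the term was not tested. Of 14964 genes 193 (1.29%) passed, 111 (0.742%) with a higher and 82 (0.548%) with a lower LPA effect in Gfap-rich nuclei. In Gfap-poor astrocytes on their own, 674 of 15943 genes (4.23%) were DEGs. Among 10962 genes tested in both populations, 170 were DEGs in both, 38.0% of the 447 in Gfap-rich and 30.9% of the 550 in Gfap-poor nuclei. The populations share their libraries, so this overlap is a description. Leaving out 1 library gave 89 (without vehicle 3), 114 (without LPA 1), 119 (without LPA 3) and at most 178 genes for the term.

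Shroom3 had a log2 fold change of 0.24 (adjusted p = 0.11) in Gfap-poor and 2.81 in Gfap-rich nuclei, a difference of 2.58 ± 0.23 (adjusted p = 7.80e-09). Neat1 was lower with LPA in Gfap-poor nuclei (-0.41, adjusted p = 0.00203) and higher in Gfap-rich nuclei, a difference of 1.80 (adjusted p = 1.33e-10). Ccn1 (difference 2.78, and 3.47 without vehicle 2) and Osmr (2.42) also had a higher LPA effect in Gfap-rich nuclei. Myoc had 0.37 (adjusted p = 0.575) in Gfap-poor nuclei and differed by -2.49 (adjusted p = 6.71e-10). Agt (-1.38) and Apoe (-0.55) fell more in Gfap-rich nuclei, and Apoe was also a DEG in Gfap-poor nuclei (-0.35, adjusted p = 0.0157). Tnr, a matrix glycoprotein, had -0.27 (adjusted p = 0.326) in Gfap-rich and rose in Gfap-poor nuclei (0.44, adjusted p = 0.00308). In Gfap-rich nuclei Tnr was a DEG without Scrublet doublets (-1.01 ± 0.16, adjusted p = 0.000334) and without groups 4 and 5 (-0.74 ± 0.15, adjusted p = 0.000861). With the same mix it was also a DEG (-0.71 ± 0.20, adjusted p = 0.0433). Each of these 8 genes passed the term without any 1 of the libraries. C4b rose in both populations (1.34 in Gfap-poor nuclei), with a difference of -0.48 (adjusted p = 0.144) that did not pass, and Ggta1 (1.61 in Gfap-poor nuclei) had a difference of -0.16 (adjusted p = 0.895). Lpar1 was lower with LPA in Gfap-poor nuclei (-0.72, adjusted p = 0.00463), had 0.30 (adjusted p = 0.658) in Gfap-rich nuclei, and differed by 1.04 (adjusted p = 0.0374). This difference was lost without LPA 1, LPA 3, vehicle 1 or vehicle 3 (adjusted p up to 0.27) and was 1.63 without vehicle 2.

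**Figure D5:**
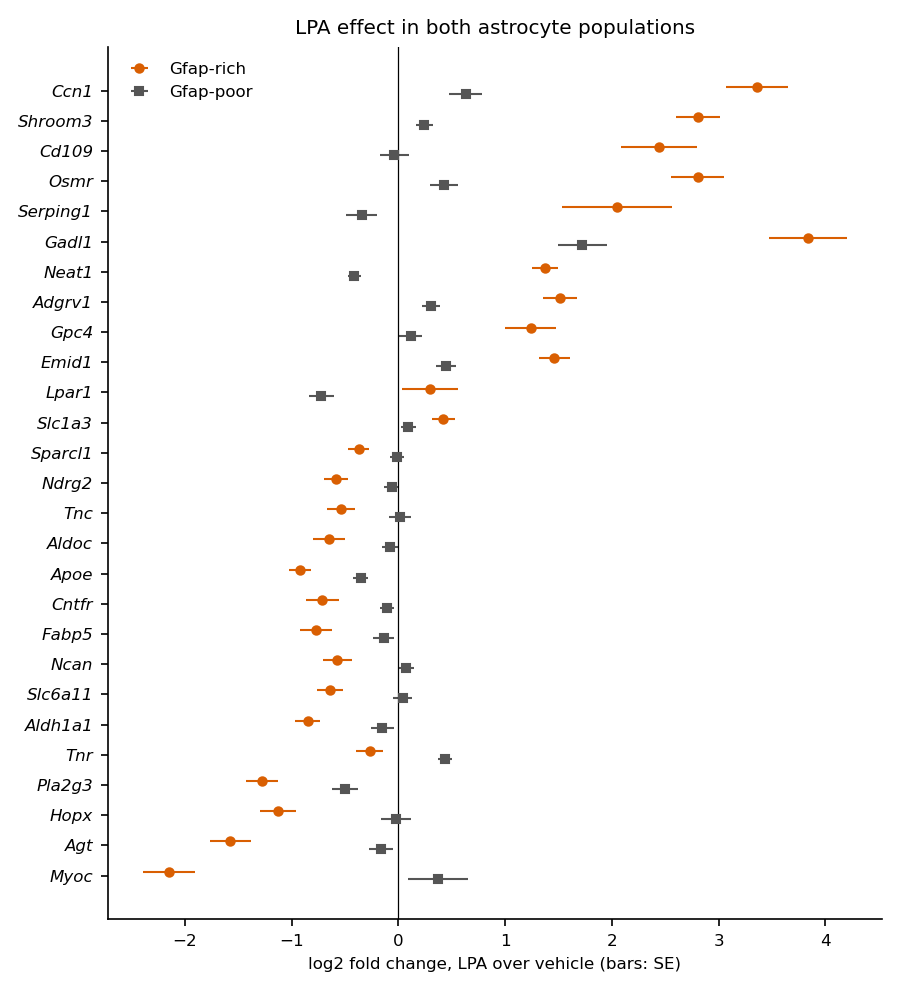
Log2 fold change of LPA over vehicle in Gfap-rich (circles) and Gfap-poor astrocytes (squares) with SE (n = 3 libraries each), for the named genes whose population by LPA term passed. Shroom3, Ccn1 and Osmr lie near or above 2.80 in Gfap-rich nuclei and below 1 in Gfap-poor nuclei, and Myoc lies at -2.15 and 0.37.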

How the data were processed

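The 6 libraries were made with the 10x 3′ v3 kit from NeuN-negative nuclei. Per the labels, the authors ran Cell Ranger 4.0.0 on mm10, with a pre-mRNA reference per their methods. They deposited filtered matrices of raw UMI counts for 32285 genes, which were used as counts. Groups came from the sample titles, with 3 libraries of separate mice each. Coordinates are GENCODE M21 (GRCm38). The members and the 31 gene lists were chosen with earlier results of these data known.

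Nuclei with at least 300 genes and at most 1% mitochondrial UMIs were kept, doublets were marked with Scrublet and left in, and counts were summed per library. LPA and vehicle were compared with edgeR 4.0.16 (R 4.3.3, TMM, filter on low counts by group, glmQLFTest), with Benjamini-Hochberg adjustment. The 11 genes of the rule counted toward library sizes and were not tested. SE is the size of the log2 fold change divided by the square root of F. The population by LPA term was fitted on 12 sums with the library as a block. For shares, all 20 assignments of the libraries gave an exact permutation p, two-sided, and intervals and limits cover counting error only. The limit for a count of 0 is 3 UMIs or nuclei over the group. Members were clustered with scanpy 1.11.5 (Leiden). Genes named were the 12 higher and 12 lower DEGs of lowest p with at least 10 CPM and libraries that did not overlap, the 10 highest and lowest ratios between the populations, the 5 genes of lowest p in each direction of the term, up to 4 genes of lowest p and all DEGs of each list, the rule genes, and Myoc, Thbs4, Vim, Nes, C4b, Apoe, Lpar1, Plpp3 and Enpp2. Il6st, Lifr, Glul, Slc1a2, Serpina3n, Lcn2, C3, Gbp2, Timp1, Sqle and Idi1 were added after their values were seen. On simulated data with 200 changed genes, log2 changes of 0.5, 1 and 2 were recovered in 0.5%, 53% and 100% of genes in Gfap-rich sums, and changes of 1 and 2 in the term in 14% and 99.5%. Alternatives were other filters, normalizations, DESeq2 1.42.0, thinning, sex as a term, single libraries left out and, chosen after seeing the data, fits without or within groups of nuclei. A few genes that met these rules are not reported here.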

Additional observations from a re-analysis of the deposited data

Results flagged for a closer look

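For 27 named genes the LPA effect differed between Gfap-rich and Gfap-poor astrocytes by the population by LPA term (edgeR adjusted p under 0.05). Over all genes tested, 193 of 14964 (1.29%) passed this term. Named genes were partly chosen by a low p of the term or as DEGs in Gfap-rich nuclei, so their count is a description. Values are differences in log2 fold change, Gfap-rich minus Gfap-poor. The effect was higher in Gfap-rich nuclei for Ccn1 (2.78), Shroom3 (2.58), Cd109 (2.52), Osmr (2.42), Serping1 (2.41), Gadl1 (2.12), Neat1 (1.80), Adgrv1 (1.24), Gpc4 (1.15), Emid1 (1.04), Lpar1 (1.04) and Slc1a3 (0.35). It was lower for Myoc (-2.49), Agt (-1.38), Hopx (-1.08), Pla2g3 (-0.78), Tnr (-0.70), Aldh1a1 (-0.69), Slc6a11 (-0.66), Ncan (-0.62), Fabp5 (-0.61), Cntfr (-0.59), Apoe (-0.55), Aldoc (-0.55), Tnc (-0.53), Ndrg2 (-0.50) and Sparcl1 (-0.34). Leaving out any 1 library ended the call of Cntfr (adjusted p up to 0.218). Single libraries also ended the calls of Gadl1, Fabp5, Sparcl1, Aldoc, Lpar1, Tnc, Gpc4, Pla2g3, Ndrg2, Serping1, Slc1a3, Hopx and Ncan (adjusted p up to 0.277, for Aldoc without vehicle 1). The difference was 3.17 for Serping1 without vehicle 1, 3.47 for Ccn1 without vehicle 2 and 1.63 for Lpar1 without vehicle 2.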

How the results depend on the processing

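The share of Gfap-rich nuclei was higher with LPA in every alternative run, between 3.38-fold and 3.97-fold when 1 library was left out, 2.21-fold with at least 1 and 4.80-fold with at least 3 Gfap UMIs. With 447 DEGs in Gfap-rich nuclei, the count was 257 after thinning, 211 with equal nuclei, 286 with DESeq2, 724 without a filter on low counts, 234 to 372 without 1 library, 694 without groups 4 and 5, 284, 84 and 0 within groups 1, 2 and 3, and 95 with the same mix. The population by LPA term, with 193 genes, gave 479 without Scrublet doublets, 111 after thinning, 42 with equal nuclei, 89 with DESeq2, 291 without a filter on low counts, 465 without groups 4 and 5 and 89 to 178 without 1 library. Gfap-poor nuclei, with 674 DEGs, gave 311 (without vehicle 3), 338 (without LPA 1), 385 (without vehicle 2), 414 (without LPA 2) and at most 591 without 1 library. Genes at least 2-fold higher than in Gfap-poor nuclei, 26 in CPM without TMM factors, numbered 47 without Scrublet doublets, 41 and 13 with at least 3 and 1 Gfap UMIs, 56 after thinning, 45 without UMIs of 6 markers of other cells and 50 without groups 4 and 5. The cause was not tested, apart from the fewer nuclei or libraries that equal nuclei, thinning and leaving out a library hold.

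Log2 fold changes reversed for A2m (-0.76), C4b (-0.36) and Klf9 (0.19) in group 3, Adamts9 (0.0073), Slc1a3 (-0.059) and Snap25 (0.16) in group 2, Vim (-0.039) in group 1 and Ranbp3l in group 1 (0.91), the same mix (0.091) and without groups 4 and 5 (0.11). Bmp6 reversed without Scrublet doublets (0.088), without markers of other cells (0.32) and without groups 4 and 5 (0.40). Lhfpl3, with 0.38 and no DEG over all members, was a DEG in the other direction without markers of other cells (-0.80), and it had -0.43 without Scrublet doublets, -0.36 after thinning, -0.32 without groups 4 and 5, -0.15 with the same mix and -0.31 in group 3. The term for Ranbp3l was 0.76 without groups 4 and 5.

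Same-numbered libraries did not deviate together (r = 0.0711, 0.152 and -0.0354), so the numbers were not taken as pairs. With a replicate block 462 genes were DEGs, the term gave 275, and the exact p of the share was 0.25, the smallest the block allows. In simulated data a log2 change of 0.5 was recovered in 0.5% of genes in Gfap-rich and 1% in Gfap-poor sums, and a change of 1 in 53% and 77.5%, so changes of this size could be missed in both.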
